A study of Mus musculus with 21 samples.

Results

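The 9 genes described here, P2ry12, P2ry13, Gpr34, Cx3cr1, Siglech, Selplg, Fcrls, Tmem119 and Sall1, are those commonly taken as homeostatic microglia genes. They were chosen by name, and all 9 symbols matched a gene among the 55401 genes of the deposited tables. RNA was measured in the forebrains of 21 mice. The parental groups E2H, E3H and E4H (n = 3 each) were homozygous for human APOE2, APOE3 or APOE4 in place of mouse Apoe, so no group had the mouse Apoe gene, and were taken at 9 to 10 months. The PS19 groups (n = 4 each) had these APOE alleles as well, APOE2 in PS/E2H, APOE3 in PS/E3H and APOE4 in PS/E4H, and were heterozygous for the PS19 transgene, human P301S mutant tau under the mouse prion protein promoter, from a line kept on a B6/C3H background. They were taken once both hindlimbs were paralyzed, so in every comparison with a parental group the transgene, the paralysis and the age when taken cannot be told apart. The APOE lines were kept on C57BL6 and crossed with the PS19 line, so the share of C3H background cannot be told apart from the transgene either. The study reports a later median age at paralysis for PS/E3H mice than for PS/E2H or PS/E4H mice. Between PS19 groups the APOE genotype can thus not be told apart from the age when taken. The same holds where the change from parental to PS19 mice is compared between lines. The study's methods state that 1 E4H, 1 PS/E2H and 2 PS/E4H mice were female and the rest male, but not which mice. Sex was thus unevenly spread over the groups.

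Microglia are the resident macrophages of the brain. In the healthy brain they hold a resting program of surface receptors that read nucleotides, lipids, chemokines and sialic acids from neighbouring cells, kept up by TGF-beta and by ligands of the CSF1 receptor. Around damaged neurons and protein deposits microglia are known to multiply, to lower several of these receptors and to turn on a disease-associated program led by Trem2 and Tyrobp. In RNA from whole tissue, fewer cells of a type and less RNA per cell cannot be told apart, nor can more cells and more RNA per cell.

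By chromosome (GENCODE M21, GRCm38), P2ry12 lies at chr3:59216272-59262871 and its paralog P2ry13 at chr3:59207892-59210882, both on the minus strand and both inside the span of Med12l on the plus strand. Fcrls is on the same chromosome at chr3:87250758-87263738, minus strand. Tmem119 at chr5:113793729-113800516 and Selplg at chr5:113818536-113832644 are near neighbours on the minus strand. Cx3cr1 is annotated at chr9:119901616-120069879, Sall1 at chr8:89027235-89044162, both on the minus strand, Siglech at chr7:55768178-55778925 and Gpr34 at chrX:13632089-13640858, both on the plus strand, Gpr34 inside the span of Cask on the other strand. All 9 are protein coding genes.

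The table of RefSeq promoters used here (GRCm38.p6) held 6 of the 9 genes, in 8 windows of 250 bases before a transcription start. Each was searched on both strands for the PU-box GAGGAA and for AGGAAGT, a core of the ETS factor PU.1 (Spi1), which drives myeloid genes, and the motifs can overlap each other. GAGGAA was in the windows of 2 of the 6 genes, Fcrls and P2ry13, and in 23.3% of all 32851 windows of the table. AGGAAGT was in windows of 3 of the 6 genes, P2ry12, Fcrls and 1 of the 3 windows of Sall1, and in 7.69% of all windows. The counts are of genes and the shares are of windows, and a gene with 3 windows has more chances. They are therefore not like for like. No copy of either was in the windows of Cx3cr1 and Siglech, which both rose in PS/E4H mice. P2ry12, with AGGAAGT, did not rise there, so the 2 windows below show no link of a motif with a rise. The 2 windows below are shown because they belong to members whose windows overlap no annotated exon and that differ in the results, P2ry13 being among the genes that rose in PS/E4H mice and Sall1 not. They are written in the direction of the gene, chr3:59210883-59211132 for P2ry13 and chr8:89044163-89044412 for Sall1, both minus strand, and capitals mark GAGGAA, which starts 48 bases before the P2ry13 start and is not in the Sall1 window.
P2ry13: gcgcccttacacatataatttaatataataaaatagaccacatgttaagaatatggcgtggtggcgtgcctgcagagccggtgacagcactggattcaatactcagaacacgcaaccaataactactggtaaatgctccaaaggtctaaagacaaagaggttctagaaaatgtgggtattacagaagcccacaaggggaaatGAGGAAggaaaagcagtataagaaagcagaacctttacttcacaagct
Sall1: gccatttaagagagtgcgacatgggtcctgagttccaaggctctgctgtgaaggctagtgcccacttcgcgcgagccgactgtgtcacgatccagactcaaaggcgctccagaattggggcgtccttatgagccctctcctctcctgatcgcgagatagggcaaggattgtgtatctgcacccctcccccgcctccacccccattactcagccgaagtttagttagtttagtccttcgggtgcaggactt
A match of letters is a description of the window and not a bound site.

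The total count per mouse was 59265459 to 75932183, and each of the 9 genes had at least 490 counts in every mouse. Levels below are CPM, counts scaled to library size with TMM factors, which compare a gene between mice, or FPKM, which scales for transcript length and compares genes. Over all genes together, E2H mouse 2 had the largest root mean square log2 difference from its own group of all 21 mice (0.379, against 0.256 to 0.353 in the others), the largest mitochondrial share (10.9%) and the fewest detected genes (24438). It was above both other E2H mice for 7 of the 9 genes. PS/E2H mouse 4, which ranked 3 of 21 by that distance, was below the other 3 PS/E2H mice for 7 of the 9 genes. Counts of members that rest on these mice are given with and without them. PS/E2H mouse 4 was picked on the levels of the genes described, so a count or an estimate without it is a description and supports nothing.

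Of the 2 ADP receptors, P2ry12, which steers microglial processes toward nucleotides released at injury and is also a platelet receptor, showed no difference between PS19 and parental mice beyond the spread between mice. P2ry12 was at 33.4, 47.7 and 38.2 CPM in E2H mice and at 39.5, 34.1, 40.6 and 18.01 CPM in PS/E2H mice. The ranges overlapped, with PS/E2H mouse 4 at 47.3% of the mean of the other 3. In E3H mice P2ry12 was at 38.7, 33.9 and 40.4 CPM, against 35.5, 38.9, 35.4 and 43.7 CPM in PS/E3H mice. In E4H mice it was at 36.4, 38.2 and 40.5 CPM, against 37.3, 39.0, 36.8 and 47.6 CPM in PS/E4H mice. Both pairs of groups overlapped. The log2 fold change of P2ry12 was -0.27 ± 0.24 (SE) in the E2 line, 0.02 ± 0.10 in the E3 line and 0.06 ± 0.10 in the E4 line, with adjusted p of 0.784, 0.955 and 0.724 in edgeR's quasi-likelihood test. With the 3 lines in 1 fit it was -0.06 ± 0.11 (adjusted p = 0.768), smaller in size than its SE, so no direction can be given. Without the 2 mice that stood apart it was 0.06, which is a description only.

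P2ry13, the neighbouring ADP receptor, rose in PS/E4H mice. P2ry13 was at 13.2, 14.8 and 14.9 CPM in E4H mice and at 23.9, 19.9, 19.5 and 26.3 CPM in PS/E4H mice. Every PS/E4H mouse was above every E4H mouse, a 1.56-fold rise (log2 0.64 ± 0.12, adjusted p = 0.00778). In the E3 line P2ry13 was at 14.2, 13.9 and 14.0 CPM without tau and at 11.5, 15.9, 18.3 and 20.2 CPM in PS/E3H mice. The 3 E3H mice were almost equal and lay inside the PS/E3H range (log2 0.22 ± 0.16, adjusted p = 0.487). E2H mice had 11.7, 17.3 and 11.1 CPM and PS/E2H mice 19.6, 14.5, 20.1 and 8.26 CPM, with the lowest value of all 21 mice in PS/E2H mouse 4 (log2 0.22 ± 0.28, adjusted p = 0.861). Over the 3 lines the estimate was 0.37 ± 0.13 with an adjusted p of 0.0549, which did not pass.

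**Figure D1:**
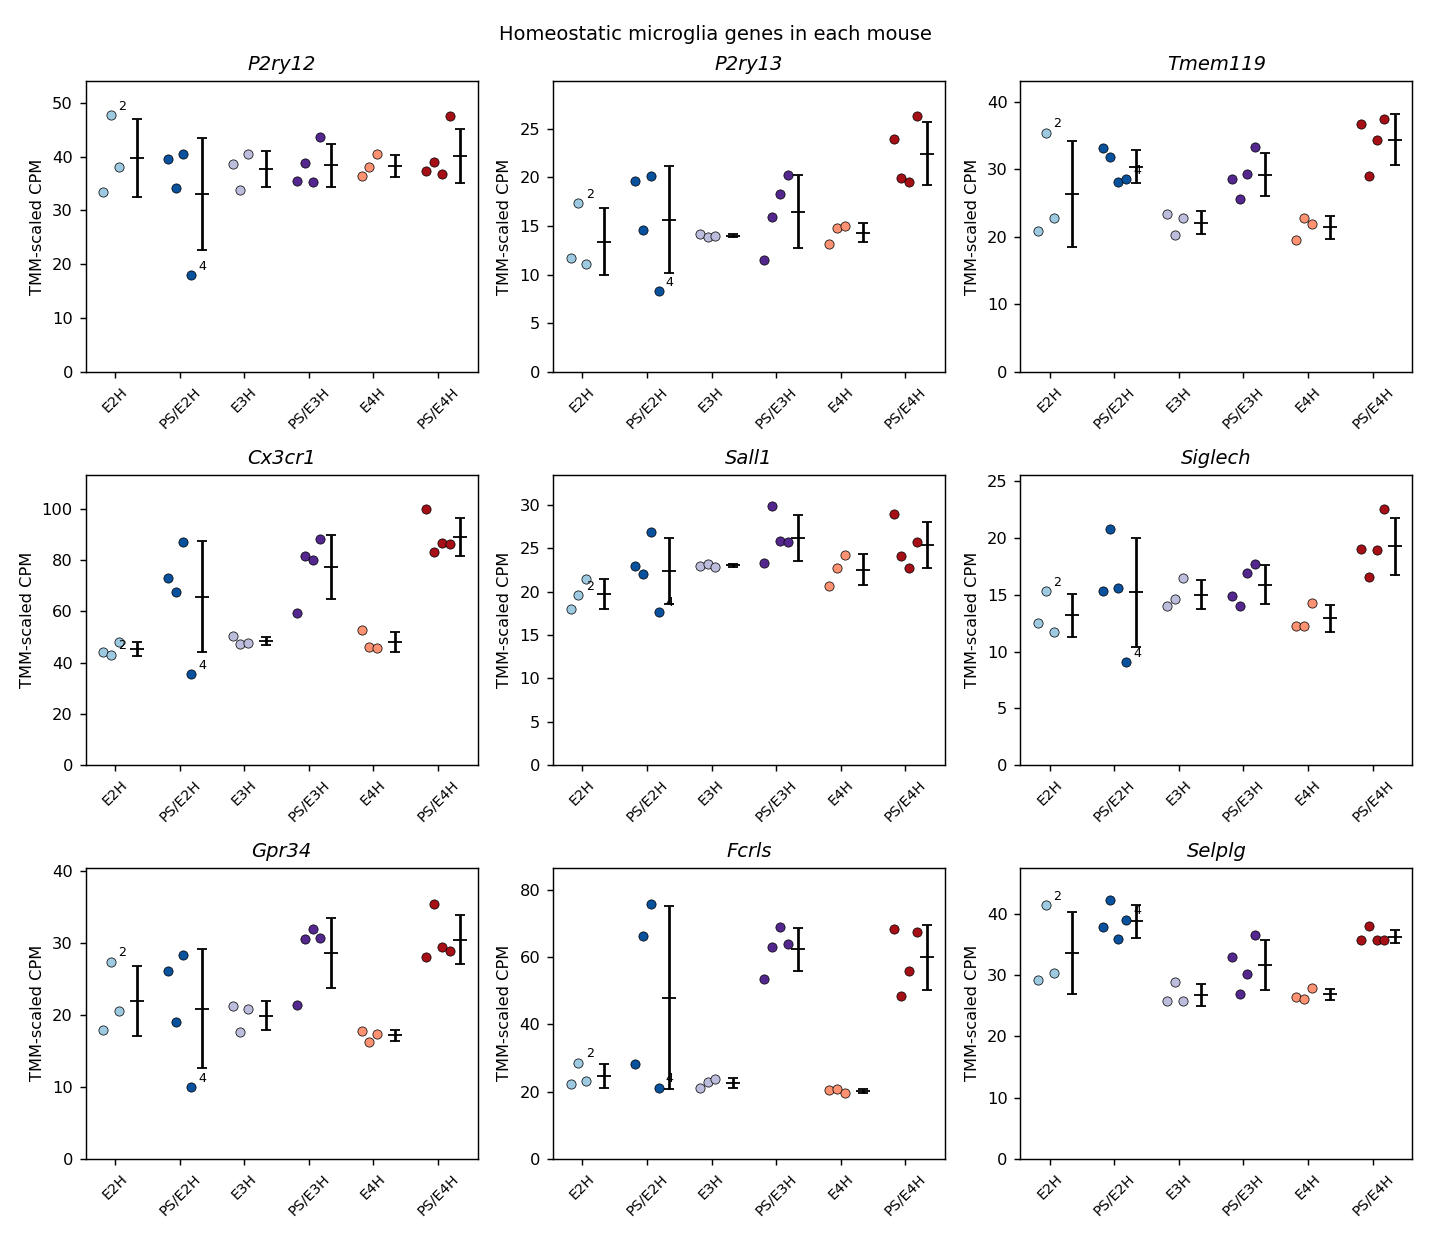
TMM-scaled CPM of each gene (y axes, from 0) in the 21 mice (points) by group (x axes), with group mean and SD as black bars; the points marked 2 and 4 are E2H mouse 2 and PS/E2H mouse 4. Fcrls, Cx3cr1, Tmem119 and Gpr34 separate PS19 from parental mice in the E3 and E4 lines, Gpr34 by little in the E3 line. P2ry12 does not in any line, and PS/E2H mouse 4 lies lowest in its group for 7 genes.

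The other 2 receptors coupled to G proteins, Cx3cr1 and Gpr34, were higher in PS19 mice of the E4 line. Cx3cr1 is the receptor for fractalkine, a chemokine that neurons carry on their surface. Cx3cr1 was at 50.3, 47.4 and 47.8 CPM in E3H mice and at 59.3, 81.5, 80.0 and 88.2 CPM in PS/E3H mice. It was at 52.7, 46.0 and 45.8 CPM in E4H mice and at 99.8, 83.2, 86.5 and 86.2 CPM in PS/E4H mice. No PS19 mouse of either line reached down to its parental group, and Cx3cr1 rose 1.58-fold in PS/E3H mice (log2 0.66 ± 0.12, adjusted p = 0.0144) and 1.84-fold in PS/E4H mice (log2 0.88 ± 0.08, adjusted p = 0.000196). In E2H mice it was at 44.3, 43.1 and 48.2 CPM, against 72.9, 67.5, 86.8 and 35.5 CPM in PS/E2H mice. PS/E2H mice 1 to 3 were above all E2H mice and mouse 4 was below all of them (log2 0.53 ± 0.24, adjusted p = 0.465). Without PS/E2H mouse 4 the difference passed (log2 0.74, adjusted p = 0.0286), as it did in none of the other 6 fits that left out 1 mouse (adjusted p of 0.538 to 0.690), and without both mice that stood apart it did not (log2 0.71, adjusted p = 0.0675). In the E3 line the call rested on every control, since leaving out any 1 of the 3 E3H mice gave adjusted p of 0.0680 to 0.0710 with log2 estimates of 0.64 to 0.69.

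Gpr34, a receptor for lysophosphatidylserine, was at 17.8, 16.3 and 17.3 CPM in E4H mice and at 27.9, 35.4, 29.4 and 28.8 CPM in PS/E4H mice. Gpr34 rose 1.77-fold there with no overlap (log2 0.82 ± 0.10, adjusted p = 0.000864). In E3H mice it was at 21.2, 17.6 and 20.9 CPM, against 21.3, 30.5, 31.8 and 30.6 CPM in PS/E3H mice. PS/E3H mouse 1 was level with the controls and the other 3 well above them, which gave log2 0.51 ± 0.14 and an adjusted p of 0.0578. Leaving out mouse 1, the lowest of its group, gave 0.00211, which its low value fixes in advance, and leaving out any other mouse gave 0.110 to 0.212. In E2H mice Gpr34 was at 17.8, 27.3 and 20.5 CPM and in PS/E2H mice at 26.03, 19.0, 28.3 and 9.96 CPM. These groups overlapped fully (log2 -0.08 ± 0.30, adjusted p = 0.967), and the estimate turned to 0.15 without PS/E2H mouse 4 and to 0.12 without E2H mouse 2.

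Fcrls, an Fc receptor-like scavenger molecule of mouse microglia, showed the largest difference of the 9 genes and was the only one to pass with a fold of 2 or more, which it did in PS/E3H and PS/E4H mice and over the 3 lines, where 1.2%, 2.4% and 2.24% of all genes tested passed as higher by such a fold. Fcrls was at 21.01, 22.9 and 23.9 CPM in E3H mice and at 53.4, 63.1, 68.8 and 63.9 CPM in PS/E3H mice. It was at 20.6, 20.7 and 19.6 CPM in E4H mice and at 68.3, 48.3, 55.8 and 67.5 CPM in PS/E4H mice. The groups were far apart in both lines, and Fcrls rose 2.74-fold in PS/E3H mice (log2 1.45 ± 0.10, adjusted p = 9.87e-05) and 2.94-fold in PS/E4H mice (log2 1.56 ± 0.12, adjusted p = 6.83e-05). E2H mice had 22.1, 28.6 and 23.2 CPM, and PS/E2H mice 28.3, 66.4, 75.9 and 21.1 CPM. PS/E2H mice 2 and 3 reached the levels of the other PS19 groups while mouse 1 and mouse 4 stayed at the level of the E2H mice, so the estimate of 0.95 ± 0.39 did not pass (adjusted p = 0.411). Over the 3 lines Fcrls was 2.51-fold higher in PS19 mice (log2 1.33 ± 0.17, adjusted p = 6.76e-06).

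Tmem119, a transmembrane protein used to tell microglia from blood-derived macrophages, was at 19.6, 22.7 and 21.8 CPM in E4H mice and at 36.7, 29.0, 34.4 and 37.4 CPM in PS/E4H mice. It rose 1.60-fold there without overlap (log2 0.68 ± 0.10, adjusted p = 0.00275). In E3H mice Tmem119 was at 23.3, 20.2 and 22.8 CPM, and in PS/E3H mice at 28.6, 25.6, 29.3 and 33.4 CPM. These groups did not overlap either, but the adjusted p was 0.0511 (log2 0.39 ± 0.10), and it was 0.0353 without PS/E3H mouse 1, 0.0393 without PS/E3H mouse 2 and 0.0879 to 0.198 without any 1 of the other 5 mice. In E2H mice Tmem119 was at 20.8, 35.4 and 22.8 CPM, and in PS/E2H mice at 33.1, 31.8, 28.1 and 28.5 CPM. All 4 PS/E2H mice were above E2H mice 1 and 3, and E2H mouse 2 was above all of them (log2 0.20 ± 0.17, adjusted p = 0.764).

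Siglech encodes a receptor of the Siglec family made by microglia and by plasmacytoid dendritic cells. Siglech was at 12.2, 12.3 and 14.2 CPM in E4H mice and at 19.0, 16.6, 18.9 and 22.6 CPM in PS/E4H mice. It rose 1.49-fold there (log2 0.57 ± 0.12, adjusted p = 0.0121), and the adjusted p was 0.0585 without E4H mouse 1 and 0.0629 without E4H mouse 2. In the E3 line Siglech was at 14.0, 14.6 and 16.4 CPM in E3H mice and at 14.9, 14.0, 16.9 and 17.7 CPM in PS/E3H mice, which overlapped (log2 0.07 ± 0.11, adjusted p = 0.773). In E2H mice it was at 12.5, 15.3 and 11.8 CPM and in PS/E2H mice at 15.3, 20.8, 15.6 and 9.09 CPM (log2 0.20 ± 0.24, adjusted p = 0.845).

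Selplg encodes PSGL-1, the ligand of P-selectin on many leukocytes. Selplg was at 26.5, 26.2 and 27.9 CPM in E4H mice and at 35.8, 38.0, 35.7 and 35.7 CPM in PS/E4H mice. The rise was small but the mice were close together, and it passed (1.35-fold, log2 0.43 ± 0.07, adjusted p = 0.0032). It was at 25.8, 28.8 and 25.7 CPM in E3H mice and at 32.9, 26.9, 30.1 and 36.6 CPM in PS/E3H mice (log2 0.23 ± 0.11, adjusted p = 0.247). E2H mice had 29.2, 41.4 and 30.3 CPM and PS/E2H mice 37.8, 42.3, 35.9 and 39.0 CPM (log2 0.20 ± 0.13, adjusted p = 0.667). Both of these pairs of groups overlapped, in the E2 line through E2H mouse 2.

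Sall1, the zinc finger transcription factor that holds microglial identity, did not pass in any line. Sall1 was at 18.03, 19.6 and 21.5 CPM in E2H mice and at 22.9, 22.1, 26.9 and 17.7 CPM in PS/E2H mice. It was at 23.0, 23.2 and 22.8 CPM in E3H mice and at 23.3, 29.8, 25.8 and 25.7 CPM in PS/E3H mice. It was at 20.7, 22.7 and 24.2 CPM in E4H mice and at 28.9, 24.1, 22.7 and 25.7 CPM in PS/E4H mice. The PS/E3H mice were above all E3H mice, by little for mouse 1, and the other 2 pairs of groups overlapped. The 3 estimates were close, at log2 0.18 ± 0.15, 0.17 ± 0.09 and 0.17 ± 0.10 (adjusted p of 0.757, 0.311 and 0.312), and the fit of the 3 lines gave 0.18 ± 0.07 with an adjusted p of 0.0523.

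Counted over the 9 genes, the number that passed an adjusted p of 0.05 in edgeR was 0 in the E2 line, 2 in the E3 line and 7 in the E4 line, and all that passed were higher in PS19 mice. Of all genes tested, 0.669% passed as higher in PS/E2H against E2H mice, 3.35% in PS/E3H against E3H mice and 8.62% in PS/E4H against E4H mice. In the E2 line 2 of the 9 had an unadjusted p under 0.05, as had 2203 of 20617 genes tested, and DESeq2 also called 0. The median log2 fold change of the 9 genes was 0.20, 0.23 and 0.64 in the E2, E3 and E4 lines, where the median over all genes tested was -0.02, 0.00 and 0.00. In the E3 line every PS19 mouse was above every parental mouse for 5 of the 9 genes (10.5% of all genes tested), and in the E4 line for 7 (15% of all). In the E2 line this held for 0 of the 9 (6.67% of all genes). Without E2H mouse 2 and PS/E2H mouse 4, 0 of the 9 passed in the E2 line and 7 had no overlap (15.6% of all genes), a count that leaving out the lowest PS/E2H mouse helps to set. Standard errors were larger in the E2 line, at 0.13 to 0.39, than in the E3 line, at 0.09 to 0.16, and the E4 line, at 0.07 to 0.12. The count in the E3 line was 1 without E3H mouse 1, 2 or 3, 5 without PS/E3H mouse 1, and 4 with DESeq2. Over all genes the number called moved with the fit as well, as given in the last section. These shifts are therefore not read as particular to the 9 genes.

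**Figure D2:**
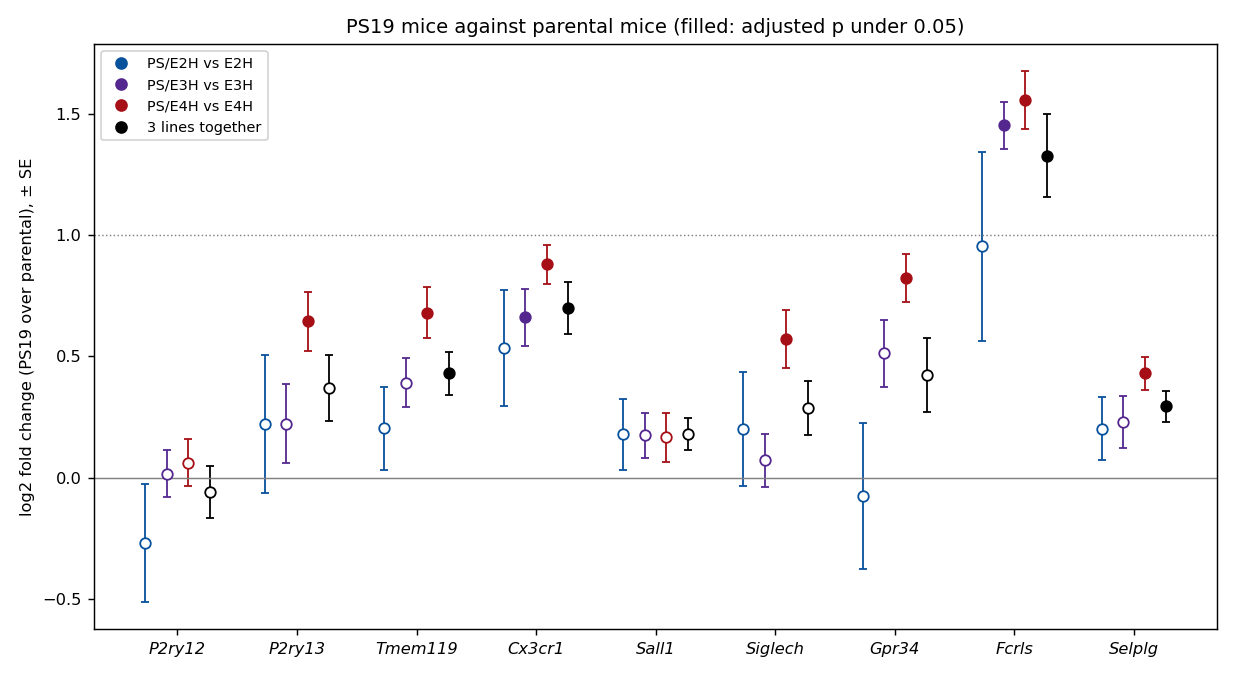
Log2 fold change of PS19 over parental mice (y axis) for each gene (x axis) in the E2, E3 and E4 lines (n = 4 against 3 each) and in the fit of all 21 mice; bars are standard errors, filled points have an adjusted p under 0.05 and the dotted line marks a fold of 2. Fcrls lies highest in every fit, and P2ry12 lies near 0 in the E3 and E4 lines and at -0.27 in the E2 line.

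Whether the tau effect differed between APOE lines was tested as an interaction, and 0 of the 9 genes passed in any of the 3 tests with edgeR or with DESeq2. Across all genes edgeR called 0 in each, that is 0.0% of genes, with 1265, 847 and 2223 genes at an unadjusted p under 0.05 for E2 against E3, E4 against E3 and E4 against E2. The largest estimate was for Gpr34, whose log2 fold change was 0.90 ± 0.35 greater in the E4 line than in the E2 line (adjusted p = 0.419), followed by Fcrls at 0.60 ± 0.45 in the same test (adjusted p = 0.692) and Gpr34 at -0.59 ± 0.37 for E2 against E3 (adjusted p = 0.860). The smallest unadjusted p was that of Siglech, 0.50 ± 0.16 greater in E4 than in E3 (unadjusted p = 0.00759, adjusted p = 0.9999). Among the 9 genes, those with an unadjusted p under 0.05 numbered 0, 1 and 2 in these tests. The counts of 0, 2 and 7 genes in the lines are therefore not shown to differ between lines. Without the 2 mice that stood apart, the median difference between the E4 and E2 lines over the 9 genes went from 0.37 to 0.07. Leaving out the lowest PS/E2H mouse helps to set that shift, so it is a description and supports nothing.

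Taking the 3 lines in 1 fit with the line as a term, 4 of the 9 genes passed, Fcrls, Cx3cr1, Tmem119 and Selplg, all higher in PS19 mice, where 11.4% of all genes tested passed as higher. Cx3cr1 was 1.62-fold higher (log2 0.70 ± 0.11, adjusted p = 5.69e-05), Tmem119 1.35-fold (log2 0.43 ± 0.09, adjusted p = 0.00122) and Selplg 1.23-fold (log2 0.29 ± 0.06, adjusted p = 0.00205). Gpr34, Sall1, P2ry13 and Siglech had adjusted p just above the threshold, at 0.0513, 0.0523, 0.0549 and 0.0696. The median log2 fold change of the 9 genes was 0.37 and that of all genes -0.01. The number that passed was 8 with DESeq2 and 8 without PS/E2H mouse 4, and was 7 without E2H mouse 2 or without PS/E3H mouse 1. It was 8 without the 2 mice that stood apart together. Over all genes, 4806 passed in either direction, and 5492 with DESeq2, 4992 without PS/E2H mouse 4, 5699 without E2H mouse 2, 4897 without PS/E3H mouse 1 and 5907 without the 2 mice. P2ry12 was the gene that did not pass in those 3 fits with 8, and no gene passed as lower in any fit.

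By APOE genotype, none of the 9 genes differed at an adjusted p of 0.05 with edgeR, DESeq2 or limma, neither among parental mice nor among PS19 mice. Those with an unadjusted p under 0.05 numbered 2 for E2H against E3H, 1 for E4H against E3H and 2 for E4H against E2H. They numbered 1 for PS/E2H against PS/E3H, 3 for PS/E4H against PS/E3H and 1 for PS/E4H against PS/E2H. At that unadjusted threshold stood 2933 of 20797, 1397 of 20958 and 2570 of 20804 genes in the parental comparisons and 2383 of 20324, 1324 of 20332 and 2491 of 20202 in the PS19 comparisons. The groups did not overlap for 2, 1 and 3 of the 9 genes in the parental comparisons (23.3%, 12.7% and 21.3% of all genes) and for 0 in each PS19 comparison (5.37%, 3.85% and 6.82%). Of all genes tested, the share called by edgeR at an adjusted p of 0.05 in either direction was 0.178%, 0.162% and 0.216% in the 3 parental comparisons and 0.113%, 0.0197% and 0.119% in the 3 PS19 comparisons. With edgeR these comparisons thus called few genes of any kind, and DESeq2 called more, as given in the last section. Within each set of 3, any pair of comparisons shares a group of mice. Selplg was highest in E2H among parental mice (33.7 ± 6.72 CPM, SD, against 26.8 ± 1.79 in E3H and 26.8 ± 0.94 in E4H), with log2 0.32 ± 0.14 over E3H (adjusted p = 0.333). Mouse 2 carried that mean, and without it the log2 difference was 0.15 ± 0.09 (adjusted p = 0.499). Among PS19 mice it was at 38.8 ± 2.70 CPM in PS/E2H and 31.6 ± 4.10 CPM in PS/E3H (log2 0.29 ± 0.10, adjusted p = 0.403). P2ry13 was at 22.4 ± 3.25 CPM in PS/E4H mice, 16.5 ± 3.77 CPM in PS/E3H mice and 15.6 ± 5.52 CPM in PS/E2H mice (log2 0.44 ± 0.16 for PS/E4H over PS/E3H, adjusted p = 0.759). Sall1 had log2 -0.23 ± 0.10 for E2H against E3H mice (adjusted p = 0.343). None of these passed with correction for the genes tested.

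**Figure D3:**
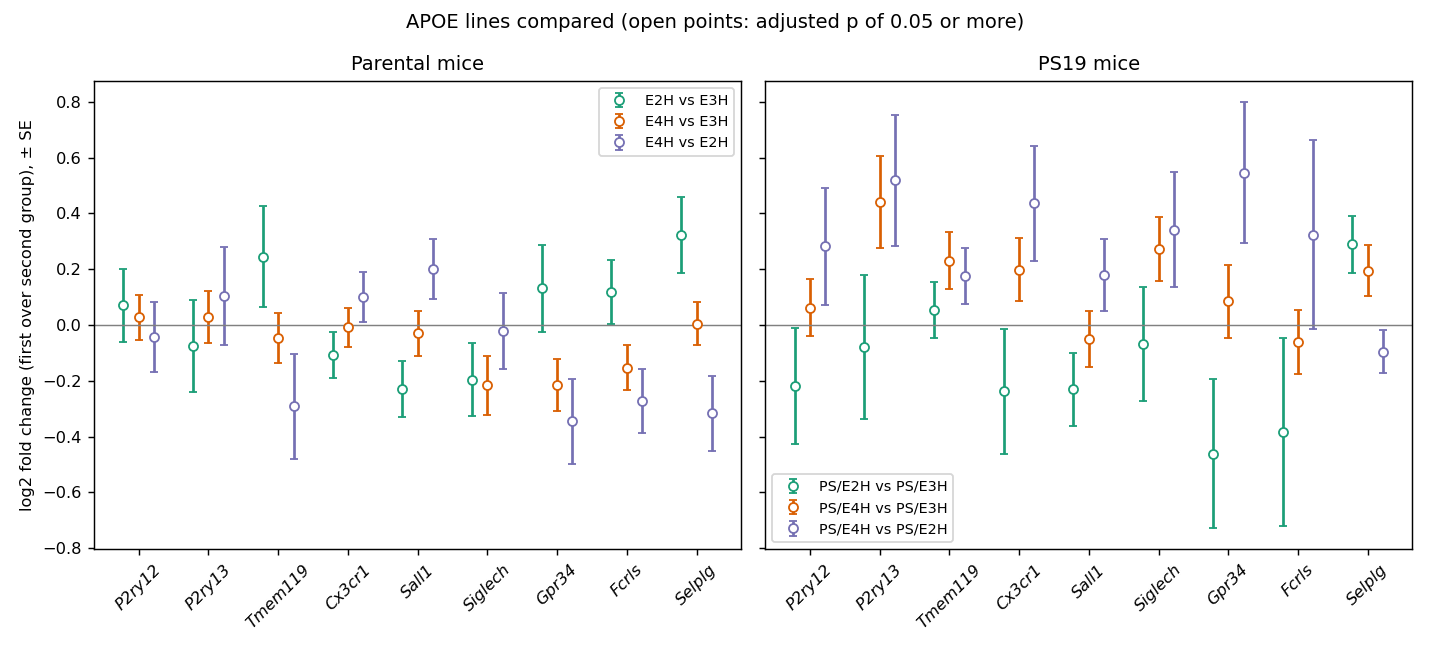
Log2 fold change (first over second group, y axes) between APOE genotypes for each gene (x axes), in parental mice (left, n = 3 against 3) and PS19 mice (right, n = 4 against 4); bars are standard errors and all points are open because no adjusted p was under 0.05. Estimates run from -0.35 to 0.32 in parental mice and from -0.46 to 0.55 in PS19 mice.

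Per length of transcript, P2ry12 had the highest level of the 9 genes in every parental group and Fcrls in every PS19 group. In E3H mice P2ry12 was at 14.1 ± 1.11 FPKM (mean ± SD, n = 3), followed by Cx3cr1 at 10.3 ± 0.12 FPKM, Fcrls at 9.25 ± 0.77 FPKM, Tmem119 at 9.10 ± 0.51 FPKM and Gpr34 at 9.06 ± 0.74 FPKM. The last 3 overlapped between mice, while P2ry12 and Cx3cr1 were each apart from the next gene. Below them stood Selplg at 5.98 ± 0.53 FPKM and P2ry13 at 5.29 ± 0.08 FPKM, each apart from the next, and then Siglech at 4.22 ± 0.40 FPKM and Sall1 at 4.17 ± 0.13 FPKM, which overlapped. In E4H mice the first and second places were the same and Sall1, at 3.97 ± 0.31 FPKM, overlapped with Siglech at 3.53 ± 0.31 FPKM. In E2H mice each of the first 5 genes overlapped with the next, from P2ry12 at 13.9 ± 1.85 FPKM down to Selplg at 6.99 ± 1.02 FPKM, which was apart from P2ry13.

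In PS19 mice Fcrls was at 24.9 ± 3.23 FPKM in PS/E3H and 23.7 ± 4.33 FPKM in PS/E4H mice, followed by Cx3cr1 at 16.0 ± 2.83 and 18.2 ± 1.70 FPKM and P2ry12 at 14.0 ± 1.43 and 14.5 ± 2.20 FPKM. Fcrls was apart from Cx3cr1 in PS/E3H mice and overlapped with it in PS/E4H mice. In PS/E2H mice Fcrls was at 18.7 ± 10.8 FPKM, with mice from 8.14 to 30.2 FPKM, and the only neighbours in the order that did not overlap were Selplg and P2ry13. The means of the PS19 groups were 5.61 to 8.18 FPKM for P2ry13, 4.05 to 5.24 FPKM for Siglech and 3.85 to 4.64 FPKM for Sall1, and Siglech and Sall1 overlapped in each group.

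**Figure D4:**
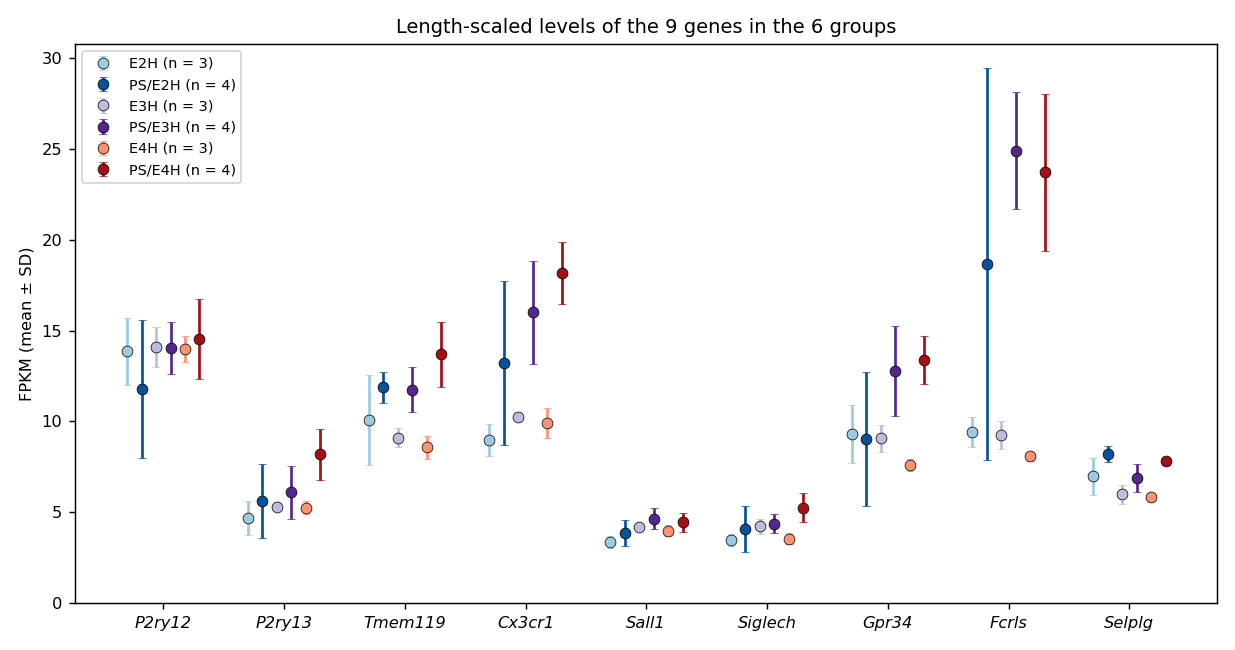
FPKM (y axis, from 0) of each gene (x axis) in the 6 groups; points are means and bars SDs over 3 parental or 4 PS19 mice. P2ry12 leads in the parental groups at 13.9 to 14.1 FPKM, and Fcrls leads in the PS19 groups at 18.7 to 24.9 FPKM.

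Of 9 partners of the receptors, the genes that these receptors work with, 6 rose and 1 fell in the fit of the 3 lines (median log2 0.37). Cx3cl1, the fractalkine that Cx3cr1 binds, was the one that fell (log2 -0.30 ± 0.07, adjusted p = 0.00361), while Cx3cr1 rose. P2ry6, a receptor for uridine nucleotides, rose 1.98-fold (adjusted p = 1.46e-05), and Entpd1, the surface enzyme CD39 that breaks down ATP and ADP, rose 1.47-fold (adjusted p = 7.61e-05). Selp, P-selectin, the ligand of Selplg, had 0 to 33 counts in the 21 mice and did not pass (adjusted p = 0.510). Over all genes, 2604 of 22863 passed as higher in the fit of the 3 lines, and the total in either direction is given above. Many genes outside the lists fell too, so the few falls here and in the lists below are not read as particular to them.

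Of 11 genes of the signals that maintain microglia, TGF-beta with its receptors and the ligands and receptor of CSF1, 7 rose and 2 fell (median log2 0.50). Csf1r, the receptor for CSF1 and IL-34 on which microglia depend, rose 1.76-fold (adjusted p = 8.87e-09), and Tgfbr2, a TGF-beta receptor, rose 1.74-fold (adjusted p = 6.81e-07). Il34, the neuronal ligand of Csf1r, fell by 0.19 on the log2 scale (adjusted p = 0.0391) and Smad3, which carries the TGF-beta signal, fell by 0.20 (adjusted p = 0.0312).

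Of 15 other genes often listed with the homeostatic program, 12 rose and 1 fell (median log2 0.54). Csf3r, the receptor for G-CSF, rose 2.40-fold (adjusted p = 2.01e-07). Upk1b, a tetraspanin, fell (log2 -0.69 ± 0.18, adjusted p = 0.0070), and Slc2a5, a fructose transporter, had log2 -0.19 ± 0.12 (adjusted p = 0.333).

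All 10 markers of myeloid cells in any state rose in the fit of the 3 lines, with a median log2 fold change of 1.05 (range 0.78 to 1.52). Fcrls, at 1.33, was the one of the 9 genes above 0.78. Among these markers Laptm5, a lysosomal protein of blood cells, rose 1.98-fold (adjusted p = 7.52e-08) and Inpp5d, the phosphatase SHIP1, rose 1.78-fold (adjusted p = 1.41e-07). In the 3 lines separately, 3, 10 and 10 of the 10 rose. Of 15 genes of disease-associated microglia all 15 rose (median 1.53), led by Itgax at 20.1-fold (adjusted p = 5.44e-11) and Clec7a at 22.9-fold (adjusted p = 2.48e-10), and 9, 15 and 15 rose in the 3 lines. The summed level of the 10 myeloid markers was 106 to 133 CPM over the parental mice, 154 to 259 CPM in PS/E2H, 168 to 289 CPM in PS/E3H and 239 to 328 CPM in PS/E4H mice. The summed level of the 9 genes was 210 to 276 CPM over the parental mice, 187 to 358 CPM in PS/E2H, 281 to 360 CPM in PS/E3H and 333 to 378 CPM in PS/E4H mice.

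Divided by the geometric mean CPM of the 10 markers, the level of P2ry12 was 4.47 ± 0.59 (SD) in E2H and 2.08 ± 0.34 in PS/E2H mice, 4.42 ± 0.16 in E3H and 2.16 ± 0.47 in PS/E3H mice, and 4.86 ± 0.24 in E4H and 2.001 ± 0.43 in PS/E4H mice. No PS19 mouse reached its parental group for this ratio. The ratio of Fcrls was 2.66 ± 0.25 in E3H and 3.49 ± 0.58 in PS/E3H mice, with every PS/E3H mouse above, and overlapped in the other 2 lines. For 6, 8 and 8 of the 9 genes in the E2, E3 and E4 lines every PS19 mouse was below every parental mouse. Any gene that rises less than the markers does this, and the shares over all genes tested were 54.5%, 74.9% and 83.9%, close to the shares of the 9 genes, so the counts say nothing particular to them.

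**Figure D5:**
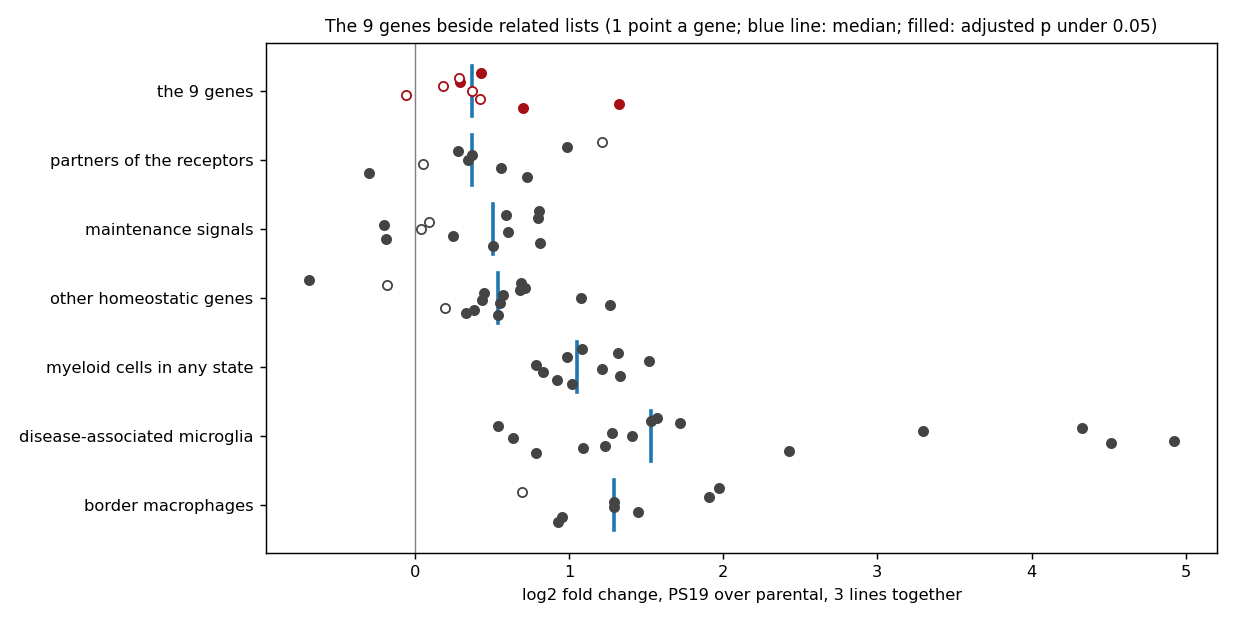
Log2 fold change of PS19 over parental mice in the fit of the 3 lines (x axis) for the 9 genes (red) and 6 related lists (grey), 1 point a gene; blue lines are medians and filled points have an adjusted p under 0.05. The 9 genes have a median of 0.37, the receptors' partners 0.37, maintenance signals 0.50, other homeostatic genes 0.54, myeloid markers 1.05, disease-associated genes 1.53 and border macrophage markers 1.29.

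Several of the 9 genes are made by other cells too, and the markers of those cells were counted in the same fit. Of 8 markers of border macrophages, 7 rose (median log2 1.29), with F13a1 at 2.72-fold (adjusted p = 3.59e-07) and the mannose receptor gene Mrc1 at 2.45-fold (adjusted p = 2.53e-06). Their summed level was 7.89 to 16.0 CPM over parental mice and 19.6 to 39.5 CPM over PS19 mice, and their part in the rises was not tested. Of 4 platelet markers, which matter for P2ry12, 0 passed with edgeR, and their sum was 3.58 to 9.77 CPM in parental and 2.49 to 8.04 CPM in PS19 mice. Gp9 was at 0 to 24 counts and Ppbp at 0 to 168 counts over the 21 mice. Of 5 markers of plasmacytoid dendritic cells, which matter for Siglech, 2 rose, Bst2 at 2.22-fold (adjusted p = 0.000147) and Irf7 at 2.43-fold (adjusted p = 0.00092), both of which interferon also raises in other cells, while Klk1 had 0 to 16 counts and Ly6d 4 to 58 counts. Of 6 markers of monocytes and neutrophils, 5 passed the filter on low counts and 1 rose, Ccr2 at 2.16-fold (adjusted p = 0.0325), and Ly6g had 0 to 10 counts. Their sum was 0.883 to 8.69 CPM in parental and 1.04 to 25.2 CPM in PS19 mice. In the E4 line alone, where 7 of the 9 genes rose, S100a8, a calcium-binding protein abundant in neutrophils and named here after its values were seen, passed as higher (adjusted p = 0.0277), at 0 to 7 counts in E4H and 10 to 273 counts in PS/E4H mice, as did Irf7 (2.81-fold, adjusted p = 0.0119) and Bst2 (2.13-fold, adjusted p = 0.0216). Their part in the rises of the E4 line was not tested. Of 5 T cell markers 0 passed, with Cd8a at log2 2.05 ± 0.82 (adjusted p = 0.0793).

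Among the other cells of the forebrain, 1 of 5 neuronal markers rose and 3 fell, with Snap25 at log2 -0.20 ± 0.04 (adjusted p = 0.00171) and Gad1 at 0.20 ± 0.05 (adjusted p = 0.00391). All 5 astrocyte markers rose, led by Gfap at 6.42-fold (adjusted p = 2.26e-11). Of 4 oligodendrocyte markers 2 rose, Mbp at 1.32-fold (adjusted p = 0.000239) and Mag at 1.22-fold (adjusted p = 0.0269), and of 4 endothelial markers 1 rose, Pecam1 at 1.21-fold (adjusted p = 0.0198). The part of these shifts in the differences of the 9 genes was not tested.

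P2ry12, P2ry13, Gpr34 and Cx3cr1 overlap other genes in the annotation. The libraries keep strand, but whether the counting used it is not given in the sources used here. Med12l, whose span holds P2ry12 and P2ry13 on the other strand, had a mean of 30.4 CPM (SD 1.52) among E4H and 21.1 CPM (SD 2.39) among PS/E4H mice and fell (log2 -0.53 ± 0.10, adjusted p = 0.00685), opposite in sign to P2ry13. Cask around Gpr34 had a mean of 70.0 CPM (SD 2.17) among E4H and 66.2 CPM (SD 2.21) among PS/E4H mice (log2 -0.09 ± 0.06, adjusted p = 0.343). The annotated span of Cx3cr1 is overlapped in part by Wdr48 on the other strand, at 3643 to 6100 counts. Wdr48 had log2 -0.09 ± 0.04 over the 3 lines (adjusted p = 0.181). The span also holds Gorasp1 and Csrnp1 on the strand of Cx3cr1. Over the 3 lines Gorasp1 had log2 0.03 ± 0.05 (adjusted p = 0.755) and Csrnp1, at 12.4 to 13.5 CPM in the means of the PS19 groups, 0.45 ± 0.17 (adjusted p = 0.0553).

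Across mice the 9 genes did not move as 1 block. Over the 36 pairs of genes, Pearson's r of log2 CPM over the 21 mice had a median of 0.64 and ran from -0.09 to 0.88, and with the group means taken away a median of 0.60 and a range of -0.25 to 0.87. The highest within groups was P2ry12 with P2ry13 at 0.87, and Selplg was a gene of each of the 4 lowest pairs, with Sall1 at -0.25 and Cx3cr1 at -0.17. All genes of a mouse share its library and its cell make-up, so these are descriptions. PS/E2H mouse 4, low for most of the 9 genes but not for Tmem119 or Selplg, enters each r. The r values without that mouse were not computed. Of 22830 other genes, those most like the mean of the 9 over 21 mice were Aif1 (r = 0.94), Adgre1 (0.94), Il10rb (0.93), Rab3il1 (0.93) and Hk3 (0.93). With group means taken away they included Lpcat2 (0.93), Ly86 (0.90), Tmem125 (0.90) and S1pr1 (0.90).

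PS/E2H mouse 4 shows how unevenly these genes moved within 1 mouse. It was at 37.2% of the mean of the other 3 PS/E2H mice for Fcrls, 40.8% for Gpr34, 45.7% for P2ry13, 46.9% for Cx3cr1, 47.3% for P2ry12, 52.7% for Siglech and 73.8% for Sall1. For Tmem119 it was at 91.8% and for Selplg at 100.9%, inside the range of the others. Among genes chosen after their values were seen, it was at 39.3% for Olfml3, 66.1% for Trem2 and 76.5% for Csf1r, and above the other 3 mice for Mertk at 133%, Golm1 at 159% and Nrros at 178%. It had 60194609 counts, 7.45% of them mitochondrial, within the range of the other mice on both.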

How the data were processed

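RNA was extracted from the forebrains of 21 mice, and stranded poly(A) libraries were sequenced in paired reads on a NovaSeq instrument. The authors trimmed reads with Cutadapt, aligned them with HISAT2 (GRCm38.p5 in the submitters' processing notes) and assembled and quantified transcripts with StringTie and ballgown; tool versions and how counts were derived are not given in the sources used here. The authors deposited counts, whole numbers per gene without normalization, and FPKM values, scaled for transcript length and library size. No column was left unmapped.

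The counts were tested with edgeR 4.0.16 in R 4.3.3: TMM factors, filterByExpr (minimum count 10, minimum total count 15), the quasi-likelihood F test and Benjamini-Hochberg adjustment over all genes tested. All 9 genes passed the filter in all 13 fits. Each comparison of 2 groups used its own mice, as in the study's methods, the fit of the 3 lines used 21 mice with the line as a term, and interactions used 4 groups. A gene passed at an adjusted p under 0.05. The SE is the absolute log2 fold change over the square root of F. CPM used TMM factors computed once over all 21 mice, while each fit computed TMM factors over its own mice. The alternatives were DESeq2 1.42.0, its size factors in edgeR, no filter, each mouse left out, a replicate block, limma 3.58.1 on log2(FPKM + 1) and log2(FPKM + 0.1) and 1 fit of all mice. Replicate numbers come from the labels and do not say that mice of the same number share a litter or day, and p-values measure the spread between these mice. Leaving out E2H mouse 2 and PS/E2H mouse 4 together and the ratio to myeloid markers were added after seeing the data. Scripts were tested on simulated counts with known changes. Tables were made with Python 3.11.15, pandas 2.3.3, NumPy 2.4.6 and SciPy 1.17.1, and figures with matplotlib 3.10.9.

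The 9 genes, the related lists and the motifs were chosen with earlier results of these data known. Of a related list, its counts are given and at most 2 genes in each direction are named, those with the smallest adjusted p in the fit of the 3 lines, apart from genes given for their low counts. The most similar genes are the 5 of highest Pearson correlation with the mean log2 CPM of the 9. One gene that these rules name is not reported here. Promoters are from RefSeq (GRCm38.p6) and positions from GENCODE M21; the table holds no promoter of Tmem119, Selplg and Gpr34.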

Additional observations from a re-analysis of the deposited data

Results flagged for a closer look

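In groups of 4 mice, the gap of the lowest or highest mouse to its neighbour was divided by the group's range, for the CPM of the 9 genes in the 3 PS19 groups, and 2 of 27 sets were past Dixon's 95% critical value, where chance gives about 1 in 20. Gpr34 in PS/E3H mice had its lowest value, 21.3 CPM in mouse 1, at 0.876 of the range below the other 3. Selplg in PS/E4H mice had its highest value, 38.0 CPM in mouse 2, at 0.984 of the range above the other 3, which lay between 35.7 and 35.8 CPM. P2ry12 in PS/E2H mice, with mouse 4 at 18.01 CPM, was not past that value.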

How the results depend on the processing

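With DESeq2, 4 of the 9 genes passed in PS/E3H against E3H mice and 8 in the fit of the 3 lines, against 2 and 4 with edgeR. Leaving out 1 mouse at a time gave 0 to 1 genes in the E2 line, 1 to 5 in the E3 line, 6 to 7 in the E4 line and 4 to 8 in the fit of the 3 lines, and 0 in the 6 APOE comparisons and 3 interactions. Without E2H mouse 2 and PS/E2H mouse 4 together, 8 passed in the fit of the 3 lines. With the replicate block 1 passed in the E2 line, 2 in the E3 line, 5 in the E4 line and 6 in the 3 lines. Same-numbered mice had correlations of their deviations from -0.23 to 0.25, were above 0.1 throughout in 0 of 9 comparisons, and 8 of 30 correlated best with their own number. Between PS19 and parental mice 3 of 3 did so in the E2 line, 2 of 3 in the E3 line and 0 of 3 in the E4 line. So few mice cannot show whether those of the same number share more than a number.

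P2ry12 and Gpr34 changed sign. P2ry12 was at log2 0.086 in the E2 line and 0.057 in the 3 lines without the 2 mice, at -0.049 with the block, -0.0099 with limma on log2(FPKM + 1) and -0.011 on log2(FPKM + 0.1) in the E3 line, and at -0.030 with the block in the E4 line. Leaving out 1 mouse it ran from -0.055 to 0.070 in E3, -0.025 to 0.11 in E4 and -0.091 to 0.014 in the 3 lines. Gpr34 in the E2 line was at 0.16 with the block, 0.35 without the 2 mice and -0.26 to 0.15 leaving out 1 mouse. Other signs of the 9 genes in the 4 tau fits held. The causes were not tested.

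Over all genes, calls were 155, 1141 and 3252 in the E2, E3 and E4 lines. They were 635 and 2327 with DESeq2 in E2 and E3, 246, 529 and 1249 with the block, 70 and 554 without a filter in E2 and E3, and 91 and 657 with limma on log2(FPKM + 1). One fit of all mice called 557 in E2. Leaving out 1 mouse gave 31 to 142 in E2, 113 to 2584 in E3 and 1189 to 3402 in E4. DESeq2 called 599, 134 and 293 genes in the parental APOE comparisons, against 37, 34 and 45, and 148, 44 and 224 in the PS19 ones, against 23, 4 and 24. The 9 genes had 490 to 6189 counts per mouse, and each test rests on 3 or 4 mice a group.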
